A study of Homo sapiens
Mus musculus and Homo sapiens with 2 samples.

Results

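NFKBIA, TNFAIP3, TNIP1, BIRC3, NFKBIZ, NFKB1, RELA, NFKB2 and RELB encode NF-kappaB transcription factor subunits and the proteins that feed back on them. They were chosen by symbol, and all 9 were among the 43167 genes of the A549 table. Their RNA was followed in A549, a human lung adenocarcinoma line, grown for 0, 2, 4, 6, 8 or 10 h with dexamethasone, a synthetic glucocorticoid. The protocol gives a dose of 100 nM, a label of the sample 101 nM, and says that control cells received an equal volume of the ethanol vehicle. The assay was sci-fate, single-cell RNA sequencing in which cells take up 4-thiouridine (200 µM, during the last 2 h in all 6 cultures) so that RNA made in that window can be told apart. Whole RNA stands for all counts of a gene, new RNA for the counts called newly made by the authors, and pre-existing RNA for whole minus new counts, which also holds any new molecule that was not called. In the 2 h culture, label and drug covered the same 2 h. There was 1 culture per time and no replicate. The series' other sample, a mixture of HEK293T and NIH/3T3 cells, is used only for the labelling background and for new shares. The label of the mixture repeats the dexamethasone series, at 100 nM, whereas the protocol gives the drug to A549 cells and names none for the mixture.

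NF-kappaB dimers are held in the cytoplasm by inhibitor proteins of the IkappaB family. Signals from TNF, interleukin-1 or pathogen receptors activate the IkappaB kinase complex, the inhibitor is degraded, and the freed dimer enters the nucleus and switches on inflammatory genes. Among its targets are genes of its own inhibitors, which closes a feedback loop. A separate, noncanonical branch runs through the kinase encoded by MAP3K14, which drives the processing of the NFKB2 precursor into a subunit that pairs with RELB. Glucocorticoids are known to repress many inflammatory genes, and NFKBIA is a known glucocorticoid-induced gene in several cell types.

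The 6 cultures held 1045 to 1446 cells (7404 in all), 28870594 to 43084614 whole counts and 5865326 to 9718958 new counts, and no barcode was shared between times. New counts made up 20.3% to 22.6% of all counts. Levels are in CPM, counts scaled to the library total with TMM factors within each kind of RNA, so a new CPM and a whole CPM of 1 gene are not amounts on the same scale, and levels of different genes are not ranked because the values are not per length. All 9 A549 epithelial markers were detected, with a summed whole level of 19487 to 26016 CPM in treated cultures and 19097 CPM at 0 h. Of the other lists, 6 of 6 fibroblast markers summed to 7.19 to 13.5 CPM in treated cultures and 11.4 CPM at 0 h, 6 of 6 leukocyte markers to 7.86 to 11.2 CPM in treated cultures and 10.9 CPM at 0 h, and 3 of 4 endothelial markers to 1.18 to 1.61 CPM in treated cultures and 1.38 CPM at 0 h (PECAM1 was not analysed here). The glucocorticoid-induced genes TSC22D3, FKBP5 and PER1 rose by 4.84, 3.93 and 3.39 log2 units in new RNA.

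NFKBIA and TNFAIP3 mRNAs are known to be short-lived, and AU-rich elements in the 3′ untranslated region (UTR) are a known feature of short-lived transcripts. The pentamer ATTTA and the longer TATTTAT, which contains it, were counted on the transcript strand of each principal transcript (GENCODE 29, GRCh38, a build other than the authors' hg19). The 3′ UTR of NFKBIA (502 bases) held 3 ATTTA and 2 TATTTAT, and that of TNFAIP3 (1993 bases) 5 and 2. Among 3′ UTRs within 10% of the same length, 54.1% held ATTTA and 11.7% held as many as NFKBIA, and for TNFAIP3 these shares were 90.1% and 41.5%. TATTTAT was in 14.6% of the 3′ UTRs as long as that of NFKBIA, in 44.0% of those as long as that of TNFAIP3 and in 29.6% of all. NFKBIZ and NFKB1 had 3 ATTTA each, NFKB2 had 1, none of these had TATTTAT, and TNIP1, RELA and RELB had no match. Of 3′ UTRs of like length, 54.8% held at least as many ATTTA as NFKBIZ, 21.3% as NFKB1 and 22.1% as NFKB2 (148 bases). ATTTA was in 68.5%, 69.0% and 46.1% of those as long as TNIP1, RELA and RELB. The sites below are shown for NFKBIA and TNFAIP3, whose new RNA rose, and for NFKB2, the gene with the lowest new share. Capitals mark ATTTA.
NFKBIA: ccacattttatATTTAttgtgcttcgag
TNFAIP3: taattcactttATTTAttttattacaaa
NFKB2: tttcaaatcttATTTAacaccccacacc
In GRCh38 they lie in 3′ UTR exons at chr14:35401699-35401726 on the minus strand, and at chr6:137882299-137882326 and chr10:102402432-102402459 on the plus strand. The matches are letters in a reference transcript, and their part in the values given here was not tested.

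Dexamethasone was followed by higher new RNA of 3 feedback genes, NFKBIA, TNFAIP3 and BIRC3, at 2.85, 2.40 and 3.07 times the 0 h level in the culture treated for 2 h. These were the 3 of 9 genes that rose in new RNA over all treated cultures, and none of the 9 fell past the threshold of an adjusted p of 0.05. Over all genes tested, 3.82% rose and 2.18% fell in this comparison. In whole RNA, NFKBIA and BIRC3 rose (2 of 9, against 0.603% of all genes) and none fell (0.275%). In pre-existing RNA, NFKBIA rose (1 of 9, against 0.0533%) and none fell (0.063%). At 2 h, where label and drug covered the same 2 h, pre-existing RNA of NFKBIA, TNFAIP3 and BIRC3 was 2.17, 2.35 and 1.85 times the 0 h level. New molecules that were not called count as pre-existing, and their part in these values was not tested.

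**Figure D1:**
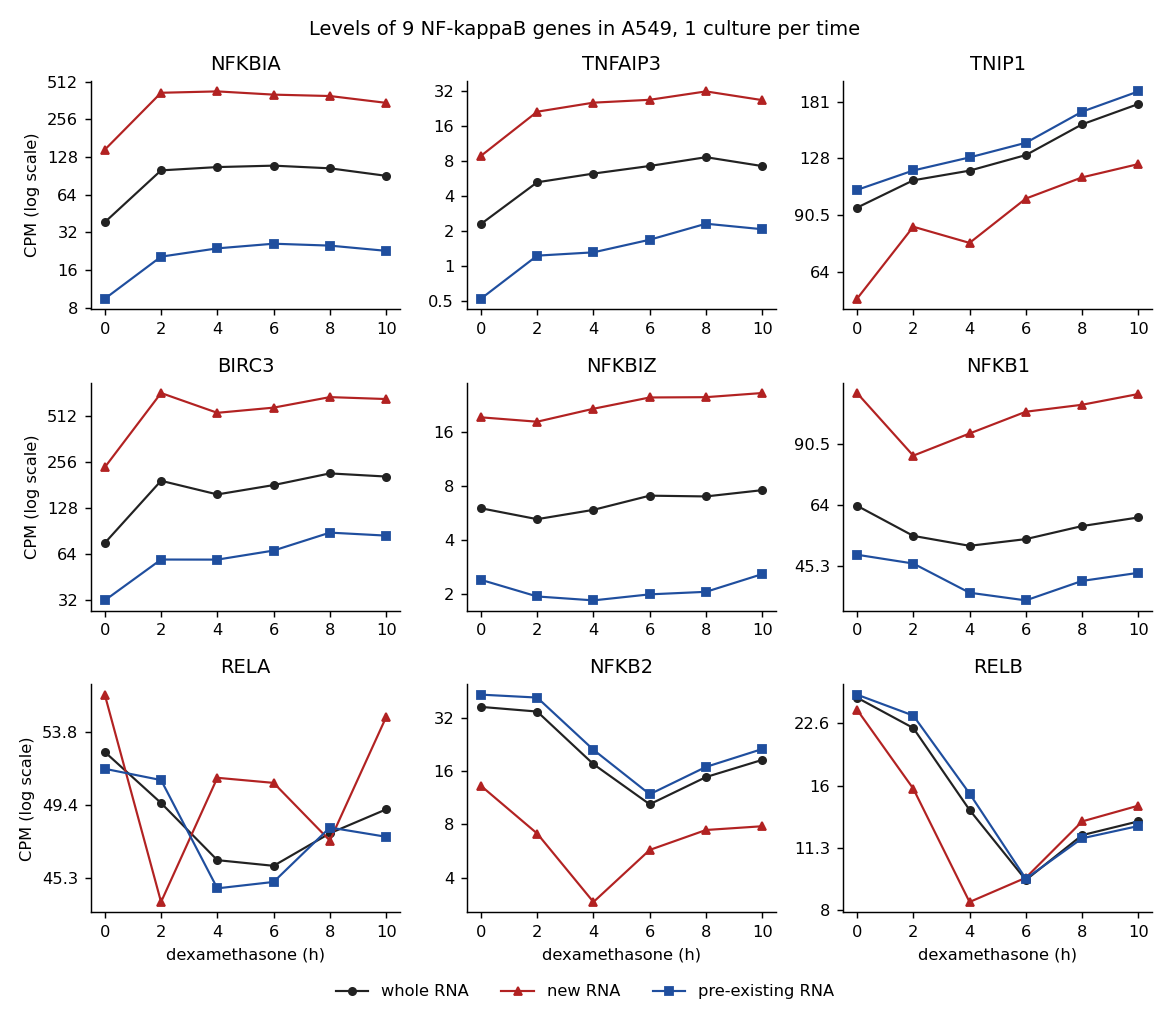
Level of each gene (CPM, log scale, normalised within each kind of RNA) against hours of dexamethasone, 1 culture per point. Whole RNA is shown as circles, new RNA as triangles and pre-existing RNA as squares; NFKBIA, TNFAIP3 and BIRC3 stand higher in every treated culture than at 0 h, while NFKB2 and RELB reach their lowest whole level at 6 h.

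NFKBIA (ENSG00000100906.6) encodes IkappaB-alpha, the inhibitor that masks the nuclear localisation of RELA dimers. Its new RNA stood at 146, 416, 427, 402, 392 and 346 CPM in the cultures of 0, 2, 4, 6, 8 and 10 h. All 5 treated cultures lay above 0 h, with the highest at 4 h and the lowest at 10 h. They averaged 397 ± 31.3 CPM (SD, n = 5), against 146 CPM at 0 h, a log2 fold change of 1.44 ± 0.13 (SE, adjusted p = 0.00031). Whole RNA was 38.6, 100.1, 106, 109, 104 and 90.6 CPM in the same order of times, a log2 fold change of 1.40 ± 0.11 (adjusted p = 0.00194). Pre-existing RNA was 9.48, 20.5, 23.9, 26.05, 25.2 and 22.8 CPM, a log2 fold change of 1.32 ± 0.15 (adjusted p = 0.0334), and this last call was lost without the 4, 6, 8 or 10 h culture (adjusted p of 0.153, 0.103, 0.123 and 0.0922). The level at 10 h was 0.831 times that at 2 h in new RNA (95% counting interval 0.789 to 0.875), but the slope over the treated times, −0.033 ± 0.011 log2 units per hour, did not pass (adjusted p = 0.112). Without the 2 h culture it was −0.048 with an adjusted p of 0.0203, in a fit where 3.07% of all genes rose and 3.86% fell with time.

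TNFAIP3 (ENSG00000118503.10) encodes a ubiquitin-editing enzyme that ends TNF receptor signalling, and its counts were low. Its new counts were 64, 152, 148, 257, 234 and 225 in the cultures of 0, 2, 4, 6, 8 and 10 h, which gave 8.83, 21.2, 25.3, 26.8, 31.6 and 26.6 CPM. Treated cultures averaged 26.3 ± 3.75 CPM (SD, n = 5) and did not overlap with 0 h. The log2 fold change was 1.58 ± 0.24 (SE, adjusted p = 0.00441) in new RNA. In whole RNA it was 1.59 ± 0.28 and just missed the threshold (adjusted p = 0.0549), while the same test without the 2 h culture gave 1.68 (adjusted p = 0.00266, with 4.09% of all genes rising) and DESeq2 gave 1.59 (adjusted p = 6.43e-06). Whole RNA of TNFAIP3 passed in 3 of 9 alternative settings, and without the 4, 6, 8 or 10 h culture it lay further from the threshold. Its slope over the treated times was 0.069 ± 0.024 log2 units per hour in whole RNA (adjusted p = 0.0972; 0.12 with an adjusted p of 0.0218 without the 10 h culture). An antisense gene, AL357060.1, overlaps TNFAIP3 over 1046 bases in GRCh38; it had 134 whole counts in the table, and no source used here says whether reads were counted by strand.

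BIRC3 (ENSG00000023445.9) encodes a ubiquitin ligase of the TNF receptor complex that promotes cell survival. In new RNA it had 236, 725, 537, 581, 681 and 662 CPM in the cultures of 0, 2, 4, 6, 8 and 10 h. The culture at 2 h was the highest, and that at 4 h was 0.742 times the 2 h level (0.709 to 0.775) before the later cultures lay higher again. Treated cultures averaged 637 ± 76.3 CPM (SD, n = 5), against 236 CPM at 0 h, a log2 fold change of 1.43 ± 0.17 (SE, adjusted p = 0.0012). Its whole RNA rose by 1.34 ± 0.17 log2 units (adjusted p = 0.015; 1.36 with an adjusted p of 0.0523 without the 6 h culture). Pre-existing RNA was 1.85 times the 0 h level at 2 h (1.70 to 2.01) and 2.78 times at 8 h (2.57 to 3.01), with a log2 fold change of 1.17 ± 0.26 that did not pass (adjusted p = 0.375; 1.24 with an adjusted p of 0.0238 without the 2 h culture, where 2.26% of all genes rose). It passed in 2 of 9 alternative settings, and without the 4, 6 or 8 h culture it lay further from the threshold.

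TNIP1 (ENSG00000145901.10), whose product binds ubiquitin chains and the TNFAIP3 enzyme, rose with time through the treated series. Whole RNA measured 94.7, 112, 119, 131, 158 and 179 CPM in the cultures of 0, 2, 4, 6, 8 and 10 h. Each culture lay above the one before it. Over the 5 treated times it rose by 0.088 ± 0.0085 log2 units per hour in whole RNA (adjusted p = 0.000324) and by 0.083 ± 0.015 in new RNA (adjusted p = 0.00616; 0.0741 without the 10 h culture). New RNA was 54.2, 84.3, 76.3, 100.1, 114 and 124 CPM, so the 10 h culture had 2.28 times the 0 h level (2.03 to 2.57). Set against 0 h over all treated times, new RNA was higher by 0.88 ± 0.24 log2 units, short of the threshold (adjusted p = 0.0704), and it passed without the 2 h culture (0.94, adjusted p = 0.0174, with 6.75% of all genes rising), without the 4 h culture (0.96, adjusted p = 0.0395), with DESeq2 (adjusted p = 0.00462) and with no filter on low counts (adjusted p = 0.00183). These were 4 of 9 alternative settings. Without the 6 or 8 h culture the difference lay further from the threshold.

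Over all genes, 3.55% rose and 4.15% fell with time in new RNA, and 6.1% rose and 6.53% fell in whole RNA. TNIP1 and NFKB1 were the 2 of 9 genes that rose with time in new RNA, and TNIP1 and NFKBIZ the 2 in whole RNA; none of the 9 fell with all treated times and the filter on low counts. In whole RNA, NFKB2 fell with time without the 10 h culture (−0.23, adjusted p = 0.0387) and with no filter (−0.11, adjusted p = 0.0203), RELB fell with no filter (−0.089, adjusted p = 0.0151), and BIRC3 rose without the 2 h culture (0.071, adjusted p = 0.0113). NFKBIZ (ENSG00000144802.7), which encodes a nuclear IkappaB protein that works with NF-kappaB on selected promoters, was the 1 gene whose treated cultures overlapped with 0 h in all 3 kinds of RNA. From 0 to 10 h its whole RNA read 5.99, 5.21, 5.87, 7.05, 6.98 and 7.57 CPM. The slope of 0.066 ± 0.019 log2 units per hour passed barely (adjusted p = 0.0489) and was lost in 8 of 9 alternatives (adjusted p of 0.0491 to 0.296 over all 9). Against 0 h, its new RNA differed by 0.27 ± 0.21 log2 units (adjusted p = 0.559).

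The subunit genes gave 2 pictures. In whole RNA, NFKB1 and RELA, of the canonical dimer, lay a little below the 0 h level in every treated culture, and NFKB2 and RELB, of the noncanonical branch, stood far below it from 4 h on. In new RNA the ratios to 0 h were already 0.702, 0.782, 0.537 and 0.645 at 2 h for NFKB1, RELA, NFKB2 and RELB. None of the 4 passed the test of all treated cultures against 0 h, whose spread includes change over time. For each of them, in each kind of RNA, all 5 treated cultures lay below 0 h; this held for 22.4% of all genes in whole, 24.1% in new and 20.8% in pre-existing RNA. The opposite, all 5 above 0 h, held for NFKBIA, TNFAIP3, BIRC3 and TNIP1 in each kind, and for 22.7% of all genes in whole, 24.9% in new and 20.3% in pre-existing RNA.

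NFKB2 (ENSG00000077150.13) encodes the precursor protein of the noncanonical branch. Its whole RNA came to 37.03, 34.8, 17.5, 10.4, 14.8 and 18.6 CPM in the cultures of 0, 2, 4, 6, 8 and 10 h. The 2 h culture was close to 0 h (ratio 0.941, counting interval 0.869 to 1.02), the lowest level was at 6 h (0.281, 0.252 to 0.313), and 8 and 10 h lay higher than 6 h. New counts were few, 96 without the drug and 51, 17, 55, 55 and 66 in the treated cultures from 2 to 10 h. They gave 13.2, 7.10, 2.91, 5.74, 7.44 and 7.81 CPM, with the lowest level at 4 h, 0.22 times that at 0 h (0.123 to 0.37). At 2 h the new RNA ratio to 0 h was 0.537 (0.374 to 0.761) while the pre-existing ratio was 0.963 (0.887 to 1.04). Over all treated cultures the log2 difference was −1.07 ± 0.35 for new RNA (SE, adjusted p = 0.124), and for whole RNA it was −0.95 ± 0.48 (adjusted p = 0.469). Leaving out the 2 h culture gave −1.28 in whole RNA (adjusted p = 0.0141), −1.29 in pre-existing RNA (adjusted p = 0.0338) and −1.12 in new RNA (adjusted p = 0.0624). With no filter on low counts the new RNA difference passed (−1.08, adjusted p = 0.0228). In each kind of RNA, NFKB2 thus passed in 1 of 9 alternative settings. With DESeq2 its whole RNA difference lay further from the threshold.

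RELB (ENSG00000104856.9), the partner of the processed NFKB2 product, had a similar course. Its whole RNA was 26.1, 22.04, 14.0, 9.47, 12.2 and 13.1 CPM in the cultures of 0, 2, 4, 6, 8 and 10 h. New RNA was 24.4, 15.7, 8.38, 9.59, 13.1 and 14.3 CPM, from 49 to 121 new counts in treated cultures and 177 at 0 h. The lowest culture was again 4 h in new RNA, 0.343 times the 0 h level (0.245 to 0.474), and 6 h in whole and pre-existing RNA (0.363, 0.322 to 0.409, and 0.36, 0.314 to 0.411). The log2 difference over all treated cultures was −0.99 ± 0.27 for new RNA (adjusted p = 0.0702), and for whole RNA it was −0.88 ± 0.34 (adjusted p = 0.343). With the 2 h culture left out it passed in new RNA (−1.09, adjusted p = 0.0118), whole RNA (−1.10, adjusted p = 0.0066) and pre-existing RNA (−1.10, adjusted p = 0.0245), and in new RNA also with DESeq2 (adjusted p = 0.0259) and with no filter on low counts (adjusted p = 0.00521). Leaving out the 2 h culture also raised the share of all genes that fell, to 4.86% in new, 2.94% in whole and 1.49% in pre-existing RNA. RELB passed in 3 of 9 alternative settings in new RNA, and in 1 of 9 in whole and in pre-existing RNA. Without the 4, 6 or 8 h culture its new RNA difference lay further from the threshold.

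NFKB1 (ENSG00000109320.7) encodes the precursor of the canonical DNA-binding subunit. The level of its new RNA was 121, 84.7, 96.0, 109, 113 and 120.0 CPM in the cultures of 0, 2, 4, 6, 8 and 10 h. The 2 h culture was the lowest, at 0.702 times the 0 h level (0.632 to 0.779), and the 10 h culture was within counting error of 0 h (0.994, 0.908 to 1.09). Over the treated times new RNA rose by 0.062 ± 0.012 log2 units per hour (adjusted p = 0.00952), a call lost without the 2, 8 or 10 h culture (adjusted p of 0.0552, 0.0543 and 0.0593). Pre-existing RNA was lowest later, at 6 h, with 37.4 CPM, against 48.4 CPM at 0 h. RELA (ENSG00000173039.14), the transactivating partner, moved least of the subunit genes. Its whole RNA averaged 47.7 ± 1.61 CPM in treated cultures (SD, n = 5) and 52.6 CPM at 0 h, a log2 difference of −0.14 ± 0.07 (adjusted p = 0.492). Its new RNA averaged 49.6 ± 4.08 CPM in treated cultures and 56.3 CPM at 0 h.

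**Figure D2:**
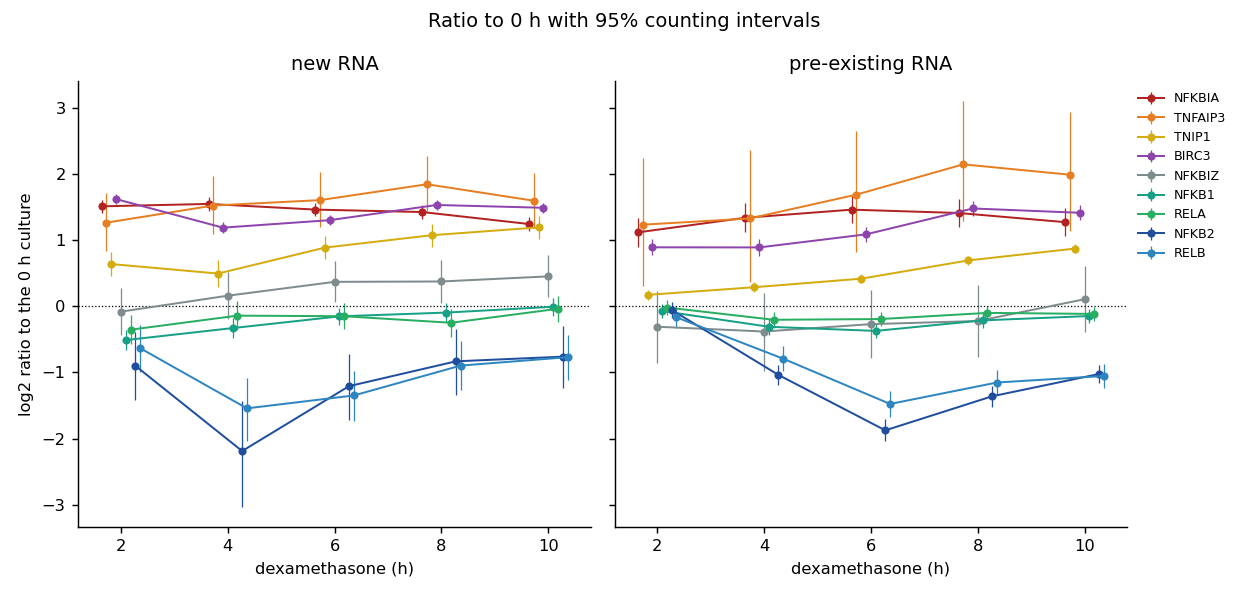
Log2 ratio of each treated culture to the 0 h culture in new RNA (left) and pre-existing RNA (right), against hours of dexamethasone; bars are 95% counting intervals, and points are shifted sideways for clarity. In new RNA, NFKB2 is lowest at 4 h (0.22 times the 0 h level), and in pre-existing RNA at 6 h (0.273 times).

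Counted per time at 1.5-fold or more, 4 of 9 genes were higher and 2 lower in new RNA at 2 h than at 0 h, where 12.4% of all genes were higher and 9.15% lower. In whole RNA at 2 h, 3 of 9 were higher and none lower, with 8.51% and 6.92% of all genes. In pre-existing RNA at 2 h the counts were 3 and 0 (6.59% and 6.26%). At 4 h, NFKB2 and RELB were the 2 lower genes in all 3 kinds of RNA, with 8.64% of all genes lower in whole, 11% in new and 8.17% in pre-existing RNA. NFKBIA, TNFAIP3 and BIRC3 were the 3 higher ones at 4 h, with 10.8% of all genes higher in whole, 13.4% in new and 9.55% in pre-existing RNA. All per-time ratios share the same 0 h culture, so its counting and culture error enters each of them.

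New counts made up very different shares of the 9 genes' RNA. NFKBIA had the highest share over all cultures, 81.6% (exact 95% interval 81.0 to 82.1), followed by TNFAIP3 with 80.4% (78.2 to 82.5), NFKBIZ with 74.1% (71.8 to 76.4) and BIRC3 with 70.2% (69.7 to 70.7). The intervals of NFKBIA and TNFAIP3 overlapped, and those of the others in this order did not. Among 11527 genes with at least 1000 whole counts the median share was 26.3%, and 10% of them lay below 7.29% and 10% above 61.1%. Of these genes, 99.6% lay below NFKBIA, 99.5% below TNFAIP3, 97.7% below NFKBIZ and 95.9% below BIRC3. NFKB1 stood between, with 40.5% (39.6 to 41.3) and 69.1% of genes below it. RELA had 22.1% (21.3 to 22.9), RELB 18.9% (17.6 to 20.3), TNIP1 14.9% (14.4 to 15.3) and NFKB2 7.21% (6.49 to 7.99), with 43.1%, 36.4%, 27.8% and 9.80% of genes below them. TNIP1, an inhibitor by role, thus stood with the subunit genes in its share. NFKBIZ, among the highest, had no TATTTAT, and the letters were not compared with the share over all genes.

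**Figure D3:**
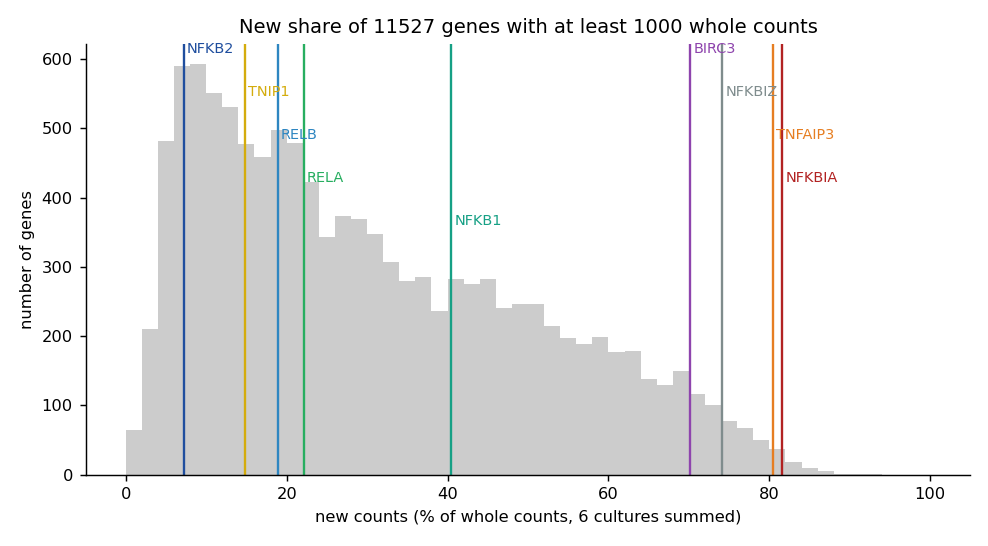
Number of genes (vertical axis) by new share of whole counts, summed over 6 cultures (horizontal axis, %), for 11527 genes with at least 1000 whole counts; vertical lines mark the 9 genes. NFKBIA, TNFAIP3, NFKBIZ and BIRC3 lie in the right tail, above 61.1%, the value that 10% of genes exceed.

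Within a gene, the share differed between times in some cases by more than counting error. BIRC3 had 66.9% (65.0 to 68.7), 75.7% (74.6 to 76.7), 70.1%, 71.3%, 68.0% and 67.6% (66.5 to 68.6) new counts in the cultures of 0, 2, 4, 6, 8 and 10 h, so the 2 h culture stood above the rest. NFKB1 had 40.3% (38.2 to 42.4), 31.7% (29.6 to 33.8), 38.6%, 45.5% (43.5 to 47.6), 42.7% and 42.1% over the same times, with its lowest share at 2 h. NFKB2 had 7.62% (6.21 to 9.22), 4.10% (3.07 to 5.36), 3.39% (1.98 to 5.37), 12.2% (9.34 to 15.6), 10.8% and 8.82%, lowest at 2 and 4 h and highest at 6 h. RELB had its lowest shares at 2 and 4 h too, 14.4% (12.0 to 17.0) and 12.2% (9.20 to 15.9), against 19.9% at 0 h (17.4 to 22.7). NFKBIA lay between 80.04% (78.7 to 81.3, at 10 h) and 83.6% (82.4 to 84.8, at 2 h), and these 2 intervals did not overlap. TNFAIP3 lay between 77.3% (72.1 to 82.0, at 10 h) and 83.1% (76.8 to 88.3, at 4 h), with overlapping intervals. Over all genes the share of new counts was highest at 6 h (22.6%) and lowest at 2 h (20.3%), and its part in the shares of single genes was not tested.

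**Figure D4:**
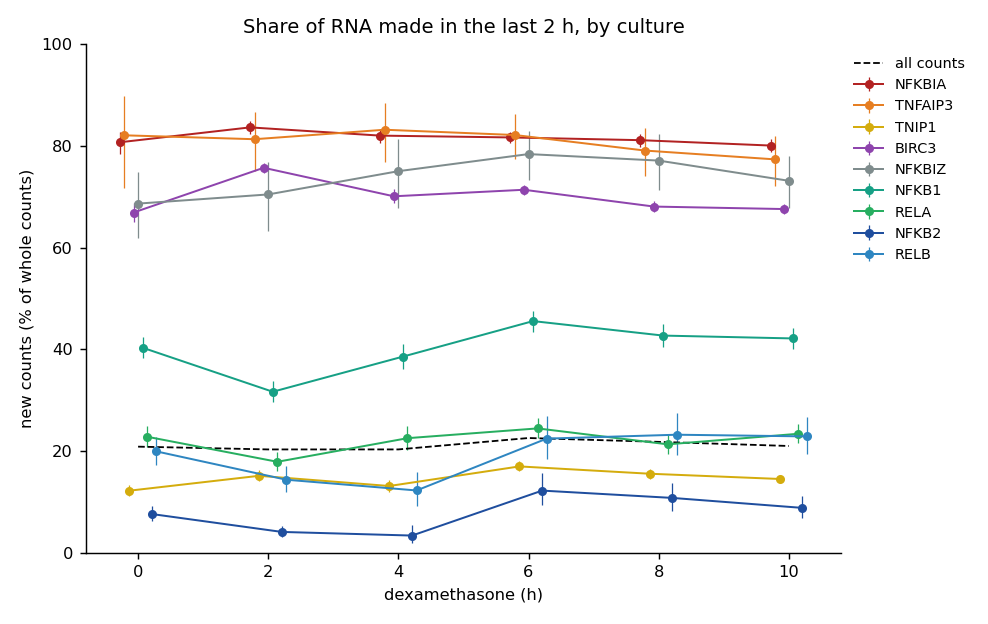
New counts as a percentage of whole counts for each gene against hours of dexamethasone, 1 culture per point, with exact 95% intervals for counting error; the dashed line is the share over all counts of the culture. NFKBIA, TNFAIP3, NFKBIZ and BIRC3 lie above 66% in every culture, and NFKB2 lies below 13%.

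A model with a term for each culture tested whether new RNA differed from pre-existing RNA in its change with treatment. None of the 9 genes passed, and with edgeR 0 of 22440 genes did in either direction (0% and 0%). An unadjusted p below 0.05 was found for 1216 genes, near the number that chance alone gives at this cutoff. The 3 glucocorticoid-induced genes did not pass either, with a median difference of 0.92 log2 units. That none of the 9 passed therefore does not show that their new and pre-existing RNA changed alike. The largest differences among the 9 were 0.49 ± 0.26 log2 units for NFKBIZ (adjusted p = 0.921) and 0.39 ± 0.13 for TNIP1 (adjusted p = 0.836). With no filter on low counts 128 genes were higher and 55 lower, and none of the 9 was among them.

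In new RNA, no tested gene of the receptors, adaptors and kinases upstream of the subunits rose, and 4 fell. Of 20 receptor and adaptor genes tested, 0 rose and 2 fell, against 3.82% and 2.18% of all genes, with a median log2 fold change of −0.051, against 0.010 over all genes. TNFRSF12A, a receptor that can activate the noncanonical branch, fell by 0.60 ± 0.13 log2 units (adjusted p = 0.0281), and TRAF3, an adaptor that keeps the MAP3K14 kinase low, fell by 0.42 ± 0.10 (adjusted p = 0.0426). The most counted genes of this list were XIAP at 0.32 (adjusted p = 0.11) and the TNF receptor gene TNFRSF1A at 0.035 (adjusted p = 0.925). Of 11 kinase genes, 0 rose and 2 fell (median 0.013), set against the same 3.82% and 2.18%. MAP3K14, the noncanonical kinase, had 362, 184, 158, 197, 210.1 and 224 CPM of new RNA in the cultures of 0, 2, 4, 6, 8 and 10 h. Its treated cultures all lay below 0 h, and its new RNA fell by 0.89 ± 0.15 log2 units (adjusted p = 0.00739) and its whole RNA by 0.91 (adjusted p = 0.0448; 0.145 and 0.104 without the 6 or 8 h culture). MAP3K8 fell by 0.65 ± 0.16 (adjusted p = 0.045), and TAB2, an adaptor of the kinase that precedes the IkappaB kinase complex, stood at 0.13 (adjusted p = 0.557). The calls of TNFRSF12A and MAP3K8 were each lost without the 4 or 6 h culture (adjusted p of 0.0628 to 0.107), and that of TRAF3 without the 4, 6, 8 or 10 h culture (0.0702 to 0.112).

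Of 21 other subunit, inhibitor and ubiquitin regulator genes, 1 rose and 2 fell in new RNA (median −0.0086), where 3.82% of all genes rose and 2.18% fell. ZC3H12A, an RNase that degrades inflammatory mRNAs, had 11.9, 35.2, 42.1, 35.5, 30.6 and 30.9 CPM over the same times. It rose by 1.55 ± 0.21 log2 units in new RNA (adjusted p = 0.00289) and by 1.57 in whole (adjusted p = 0.0128), and passed in all 9 alternatives of each. NFKBIE, a further IkappaB gene, fell by 0.92 ± 0.22 (adjusted p = 0.0434; 0.0144 to 0.0937 over the alternatives, lost in 5 of 9), and the subunit gene REL by 0.41 ± 0.10 (adjusted p = 0.0496; 0.0231 to 0.109, lost in 6 of 9). TAX1BP1 and ITCH, partners of the TNFAIP3 enzyme, stood at 0.17 and 0.11.

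NF-kappaB target genes split. Of 33 listed, 24 were tested in new RNA, and 3 rose and 4 fell, against 3.82% and 2.18% of all genes. Their median was −0.72 log2 units, against 0.010 over all genes. IER3, an early response gene, had 368, 122, 86.4, 83.5, 96.0 and 89.5 CPM in the cultures of 0, 2, 4, 6, 8 and 10 h and fell by 1.95 ± 0.16 (adjusted p = 0.00016). The chemokine genes CCL2 and CXCL3 fell by 2.01 ± 0.35 (adjusted p = 0.0102) and 1.28 ± 0.24 (adjusted p = 0.013), and LIF, a cytokine gene of the interleukin-6 family, fell by 0.76 ± 0.14 (adjusted p = 0.0131). The genes that rose were the survival gene BCL2L1, by 1.03 ± 0.18 (adjusted p = 0.00915), GADD45B, by 1.00 ± 0.15 (adjusted p = 0.00496), and CFLAR, an inhibitor of death receptor signalling, by 0.84 ± 0.14 (adjusted p = 0.00694). These 7 target genes passed in all 9 alternatives in new RNA. In whole RNA, 0 of 28 target genes tested rose and 1 fell, against 0.603% and 0.275% of all genes. It was IER3, which fell by 1.88 log2 units (adjusted p = 0.0069).

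**Figure D5:**
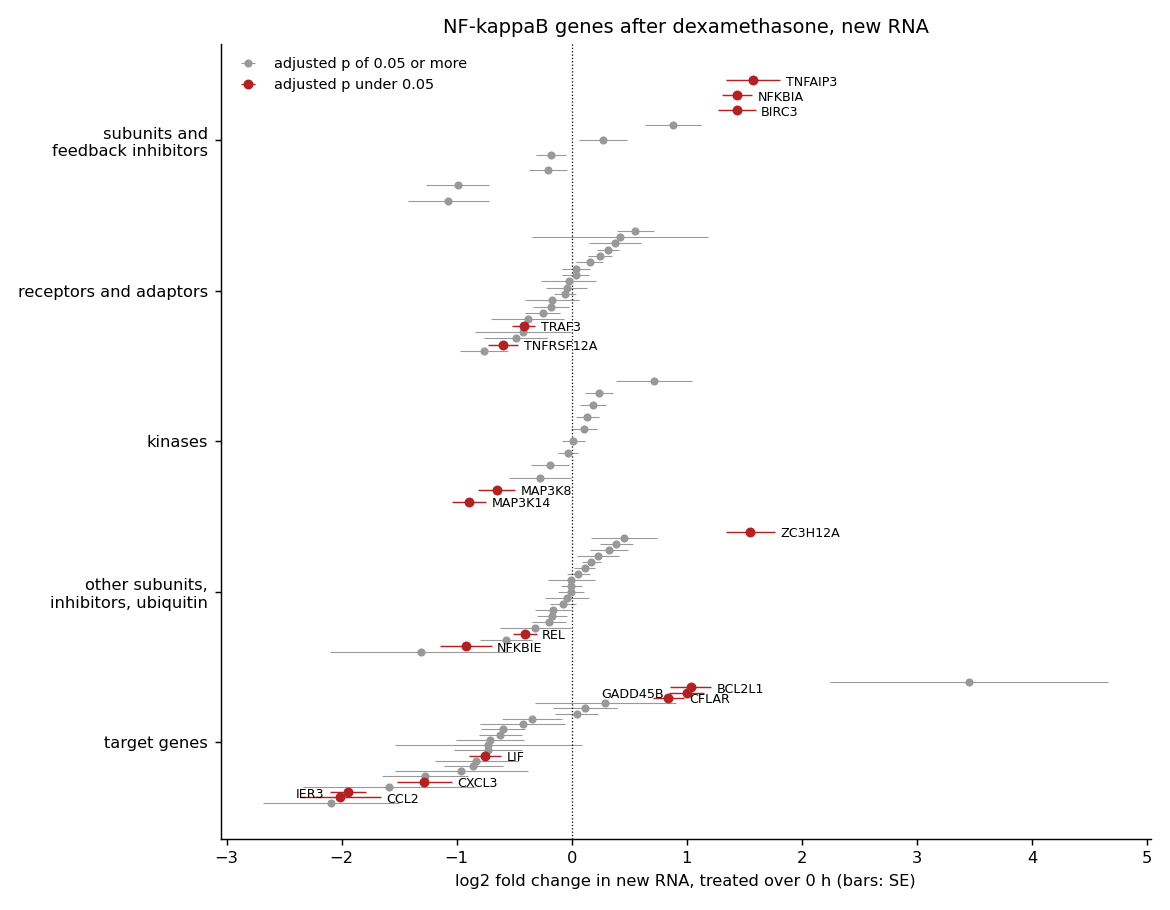
Log2 fold change in new RNA, treated over 0 h (horizontal axis, bars are SE), for the 9 genes and the other pathway genes tested, by role; red marks an adjusted p under 0.05. In the top row TNFAIP3, NFKBIA and BIRC3 lie between 1.43 and 1.58, while the target genes in the bottom row have a median of −0.72; the point farthest right is the target gene C3 at 3.45 with an SE of 1.21.

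For the 3 genes that rose in new RNA, the nearest profiles over the 6 cultures were sought among 9599 genes by root mean square distance of centred log2 CPM. Nearest to NFKBIA was TANC2 at 0.023 log2 units, with 849 CPM at 2 h and 703 at 10 h, against 291 at 0 h, followed by NOTCH2NL at 0.057 and ZBTB20 at 0.061. Nearest to TNFAIP3 were NBEAL2 at 0.078, STARD13 at 0.083 and SGK1 at 0.088. Nearest to BIRC3 was CEBPB at 0.084, with 423 CPM at 2 h and 365 at 4 h, against 151 at 0 h, then APOL2 at 0.11 and ITGA5 at 0.12.

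The background of the new call for these genes comes from the mixture, since no A549 cells without label were analysed here. Whether the background of each gene is the same in A549 was not tested. In HEK293T, a human embryonic kidney line, labelled for 6 h, the 9 genes together had 75.6% new counts (795 of 1052, 72.9 to 78.1), against 54.7% over all human genes. In HEK293T cells treated with iodoacetamide, the reagent that alters the label, but given no 4-thiouridine, they had 0.937% (18 of 1922), against 1.24% over all genes. TNFAIP3 had 0 new of 26 counts in these cells (0% to 13.2%), and 18 of 20 with label and iodoacetamide. Without iodoacetamide it had 1 of 15 with the label and 0 of 19 without it. NFKBIA had 87.0% new counts in labelled HEK293T cells (76.7 to 93.9), NFKB1 86.3% (82.3 to 89.6), RELA 68.8% (62.7 to 74.4) and TNIP1 68.03% (61.8 to 73.8). BIRC3 had 2 whole counts there and NFKB2 and RELB 24 each, too few to place. In NIH/3T3, a mouse fibroblast line, the 9 mouse genes had 52.3% (379 of 724, 48.6 to 56.04) with the label, against 33.1% over all mouse genes, and 1.28% without it (12 of 939), of which 4 were among 19 counts of Tnfaip3. In NIH/3T3 cells not treated with iodoacetamide, Tnfaip3 had 3 new of 35 counts with the label and 4 of 36 without it. Over all mouse genes these shares were 0.785% and 0.728%. In HEK293T, as in A549, NFKBIA had a higher share than RELA, with intervals that did not overlap. Unlike in A549, RELA could not be told apart from TNIP1 or from NFKBIZ (73.5%, 58.9 to 85.1), nor NFKBIA from NFKB1. In labelled NIH/3T3 cells the intervals of Nfkbia (56.0%, 44.1 to 67.5) and Rela (48.5%, 39.8 to 57.3) overlapped. The label lasted 6 h in the mixture and 2 h in A549.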

How the data were processed

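The deposited count tables list, for each cell and gene, raw counts of all molecules and of those the authors took as newly made. Per the submitters' processing notes, Picard 1.105, SAMtools 1.3, STAR 2.5.2b and Trim Galore 0.4.1 were used with hg19 and mm10; how molecules were counted and called new was not given in the sources used here. Each A549 cell has a drug time and a doublet score from the authors (at most 0.191), per the file headers, and no cell was removed. Counts were summed over the cells of each time, since cells are not replicates, and new counts never exceeded whole counts.

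The sums were tested with edgeR 4.0.16 (R 4.3.3) by its quasi-likelihood test, with TMM normalisation, filterByExpr at a minimum count of 10 and Benjamini-Hochberg adjustment over all genes. The 5 treated cultures were set against the lone 0 h culture (4 residual degrees of freedom), which is assumed to vary like them. Slopes used the 5 treated times (3 degrees of freedom), and new was compared with pre-existing RNA with a culture term (4 degrees of freedom). P-values measure only the spread between these cultures. Ratios and shares carry exact 95% intervals for counting error only. The models were tested on simulated data with the same dispersion for every gene, which is simpler than the spread between these cultures. That test therefore does not show how well this spread is modelled. Alternatives were RLE factors, library totals, no filter, DESeq2 1.42.0, leaving out each treated culture, only cells with at least 10000 counts, and shares averaged over cells.

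The genes and lists were chosen with earlier results of these data known, and the UTR letters after the shares were seen; those of BIRC3 are not reported here. Beside the 9 genes, the text names up to 4 rises and 4 falls per list past the threshold in new RNA, the 2 most counted genes per list, 3 glucocorticoid-induced genes and the 3 nearest profiles; C3 was named after its value was seen.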

Additional observations from a re-analysis of the deposited data

Results flagged for a closer look

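Each gene's 5 treated cultures were searched for 1 culture far from the others in whole, new and pre-existing RNA and in the new share, 36 sets in all, of which chance alone flags about 1 in 20. In pre-existing RNA of NFKBIZ, the 10 h culture, at 2.57 CPM, lay far above the other treated cultures, with a gap to its neighbour of 0.71 of the whole range. The 0 h culture had 2.39 CPM, and the ratio of 10 h to 0 h was 1.08 (counting interval 0.767 to 1.52).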

How the results depend on the processing

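No paired analysis was possible because each time was 1 culture, so the groups share no replicate numbers. In new RNA, NFKBIA, TNFAIP3 and BIRC3 kept their direction and passed in all 9 alternatives, with adjusted p of at most 0.0183. Counts over all genes moved more. In whole RNA 138 genes rose and 63 fell; without the filter 302 and 149 did, and with DESeq2 557 and 229. In new RNA 669 rose and 381 fell, and without the filter 614 fell. In pre-existing RNA 11 rose and 13 fell, against 37 and 24 without the filter and 136 and 47 with DESeq2. New against pre-existing RNA gave 0 and 0, and 128 and 55 without the filter. Leaving out 1 treated culture at a time gave 57 to 931 rises and 18 to 669 falls in whole RNA, 428 to 1176 and 201 to 846 in new RNA, 0 to 463 and 5 to 304 in pre-existing RNA, and 0 to 22 and 0 to 14 in new against pre-existing RNA. The largest of these counts in each comparison against 0 h came without the 2 h culture. For slopes it gave 713 to 1265 rises and 701 to 1304 falls in whole RNA (1311 and 1404 with all 5), and 225 to 538 and 281 to 630 in new RNA (581 and 680). Without the filter the median log2 change over all genes in new RNA was 0.112, against 0.0102 with it.

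Of the values of single genes, those that changed sign had not passed the test; the cause was not tested. The slope of whole RNA became −0.00023 for RELA with library totals, and with 1 treated culture left out it ran from −0.0080 to 0.016 for RELA (−0.0017 without 4 h), from −0.23 to 0.038 for NFKB2, from −0.16 to 0.0049 for RELB and from −0.039 to 0.011 for NFKBIA. The slope of new RNA ran from −0.013 to 0.056 for BIRC3 (−0.0047 and −0.0090 without 8 or 10 h) and from −0.041 to 0.14 for RELB (−0.015 without 4 h). The difference of new from pre-existing RNA became −0.043 with RLE factors and −0.042 with library totals for NFKB1. With 1 treated culture left out it ran from −0.034 to 0.15 for NFKB1 (−0.011 and −0.0096 without 8 or 10 h), from −0.20 to 0.24 for NFKB2 (0.13 without 4 h), from −0.077 to 0.039 for RELA and from −0.18 to 0.060 for RELB (0.051 without 4 h). Without the 2 h culture, slopes that passed in new RNA were 0.11 for TNIP1, as with all 5 times, and −0.048 for NFKBIA, 0.056 for BIRC3, 0.20 for NFKB2 and 0.14 for RELB (adjusted p of 0.000406, 0.0203, 0.00929, 0.0454 and 0.0321). New shares from cells with at least 10000 counts differed by −0.245 to 1.36 percentage points, none of 54 beyond counting error, and means over cells by −2.72 to 2.31 points, 7 of 54 beyond it. Low new counts limit TNFAIP3, NFKBIZ, NFKB2 and RELB.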
